A study of Bos taurus with 36 samples.

Results

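TRiC, also called CCT, is the chaperonin of the eukaryotic cytosol, and the genes described here are those of its 8 subunits: TCP1 (Entrez 512043), CCT2 (505313), CCT3 (504735), CCT4 (613336), CCT5 (533784), CCT6A (521540), CCT7 (514355) and CCT8 (281047). They were chosen by gene symbol in bovine RefSeq, 8 of the 35092 genes in the deposited count table, and all 8 were among the 19635 genes that reached 10 counts in 4 or more fetal organ libraries. The 36 RNA-seq libraries came from 10 male fetuses collected from heifers on Day 42 of gestation, and are 9 from the heart, 9 from the gonads, 8 from the liver and 10 from maternal blood. All fetuses came from transferred embryos. Of these, 5 belonged to the ET_D7 group, in which the transfer was synchronous with the cycle of the recipient, and 5 to the ET_D9 group, in which the uterus was ahead of the embryo, so every group carried a transferred embryo and none a natural pregnancy. The heart of fetus 7, the gonads of fetus 2 and the livers of fetuses 6 and 7 have no library. The fetuses are numbered here from the lightest, fetus 1 (1.253 g), to the heaviest, fetus 10 (1.69 g), and since fetuses 1 to 5 were all ET_D7 and fetuses 6 to 10 all ET_D9, weight and transfer group largely cannot be told apart.

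TRiC is a barrel of a pair of stacked rings, in which each paralogous subunit takes a fixed position. It encloses newly made or unfolded polypeptides and releases them folded as ATP is hydrolysed, and actins and tubulins are its best known substrates. Prefoldin hands such chains to it, phosducin-like proteins act as its cofactors, and the HSP70 and HSP90 chaperones work upstream of it and beside it. The particle needs every subunit, but single subunits have also been found outside it.

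Total counts ranged from 18231089 to 40812354 per library. No subunit fell under 281 counts in any library, so counting error is small beside the spread between animals. The mitochondrial share, that is the percentage of counts on genes of the mitochondrial genome, was 17.1% to 57.3% for hearts, 16.3% to 36.8% for livers, 3.31% to 7.23% for gonads and 2.14% to 3.29% for blood. The 8 cardiomyocyte markers, and in the liver the 8 hepatocyte and 8 erythroid markers, were higher in every library of their organ than in every library of the other organs. In the gonad libraries this held for 1 of 8 Sertoli, 0 of 7 Leydig, 1 of 8 germ cell and 6 of 8 mesonephros markers, with DMRT1, GATA4 and DDX4 at no more than 0.275 CPM, so the label gonads is used as given and their cell types are not named. In blood, 6 of 7 leukocyte markers were above every organ library. The 8 cardiomyocyte markers summed to 3775 CPM (the level defined below) in the blood library of fetus 2 and 1280 CPM in that of fetus 5, against at most 20.1 CPM in the others, while TNNT2, MYL7, NPPA and NKX2-5 of that list were at or near 0 in all blood libraries. In bulk tissue, fewer cells that express a gene and less RNA per cell cannot be told apart.

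Each organ differed from the others in some subunits and not in others. CCT5 was low in the gonads, CCT2 was low in the liver, CCT8 was high in the gonads and low in the liver, and CCT7 was high in the heart. TCP1 did not pass the test in any pair of organs. Levels are given as CPM, the count relative to the library size after TMM scaling, and the contrasts are from edgeR's quasi-likelihood test with Benjamini-Hochberg adjustment over the 19635 genes, called at an adjusted p under 0.05. The summed level of the 8 subunits ran over 1003 to 1720 CPM for hearts (median 1245), 1066 to 1538 CPM for gonads (median 1377) and 774 to 1533 CPM for livers (median 1016), so the 3 ranges overlapped.

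CCT5, the epsilon subunit, was set apart by the gonads. Both CCT5 and CCT4 can build rings of a single kind of subunit in vitro. CCT5 ranged from 196 to 225 CPM in the heart (median 215), from 94.2 to 127 CPM in the gonads (median 104) and from 201 to 348 CPM in the liver (median 252). Every gonad library was below every heart and liver library, while heart and liver overlapped. The log2 fold change was 0.998 ± 0.09 (standard error) for heart against gonads (adjusted p = 3.11e-10, edgeR), −1.26 ± 0.09 for gonads against liver (adjusted p = 2.05e-12, edgeR) and only −0.26 ± 0.09 for heart against liver (adjusted p = 0.0141, edgeR). The last of these missed the threshold without fetus 10 (−0.19, adjusted p = 0.056, edgeR). With libraries scaled by total counts alone, no CCT5 contrast passed. The values were then −0.057 for heart against gonads (adjusted p = 0.733, edgeR), −0.22 for gonads against liver (adjusted p = 0.182, edgeR) and −0.28 for heart against liver (adjusted p = 0.105, edgeR).

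CCT2, the beta subunit, which has also been described as a receptor for aggregates in autophagy, was set apart by the liver. Its level ranged from 76.6 to 170 CPM in the heart (median 113), from 84.1 to 144 CPM in the gonads (median 109) and from 20.2 to 49.2 CPM in the liver (median 33.6). No liver library reached the lowest heart or gonad library. The log2 fold change was 1.84 ± 0.17 for heart against liver (adjusted p = 2.82e-10, edgeR) and 1.74 ± 0.17 for gonads against liver (adjusted p = 6.92e-10, edgeR), and heart and gonads differed by 0.10 ± 0.16 (adjusted p = 0.607, edgeR).

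CCT8, the theta subunit, whose level has been linked to how much complex is assembled in stem cells, ranged from 182 to 233 CPM in the gonads (median 207), from 45.9 to 244 CPM in the heart (median 90.0) and from 34.7 to 90.7 CPM in the liver (median 57.0). Gonads and liver did not overlap, and the heart spanned both. The log2 fold change was 1.81 ± 0.23 for gonads against liver (adjusted p = 6.41e-08, edgeR), −0.88 ± 0.21 for heart against gonads (adjusted p = 9e-04, edgeR) and 0.93 ± 0.22 for heart against liver (adjusted p = 0.000585, edgeR). With 1 exception, fetus 10, every heart library lay below every gonad library.

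The remaining subunits differed less. CCT7, the eta subunit, ranged from 166 to 191 CPM in the heart, above every library of the gonads (86.5 to 138) and the liver (78.4 to 126), with log2 fold changes of 0.72 ± 0.09 (adjusted p = 5.29e-08, edgeR) and 0.82 ± 0.09 (adjusted p = 5.46e-09, edgeR). CCT3, the gamma subunit, ranged from 160 to 226 CPM in hearts, from 154 to 211 in gonads and from 70.1 to 161 in livers, of which only that of fetus 10 reached the other organs. Its log2 fold change was 0.91 ± 0.12 for heart against liver (adjusted p = 2.48e-07, edgeR) and 0.82 ± 0.12 for gonads against liver (adjusted p = 1.25e-06, edgeR). CCT4, the delta subunit, was lower in the heart (77.0 to 248 CPM) than in the gonads (169 to 259 CPM), with a log2 fold change of −0.64 ± 0.17 (adjusted p = 0.00271, edgeR), although fetus 10 and fetus 3 reached the gonad range. For gonads against liver it just missed the threshold (0.39 ± 0.18, adjusted p = 0.0517, edgeR) and passed it without fetus 1 (0.45, adjusted p = 0.0436, edgeR) or fetus 10 (0.50, adjusted p = 0.00322, edgeR). TCP1, the alpha subunit and the first to be described, had medians of 164 CPM for hearts, 193 CPM for gonads and 181 CPM for livers, and its adjusted p was 0.163 or more in each pair of organs (edgeR). CCT6A, the zeta subunit, was called only for gonads against liver (log2 fold change 0.61 ± 0.25, adjusted p = 0.0307, edgeR), and that call was lost when any of fetuses 2, 3, 4, 5, 8 and 9 was left out (without fetus 5, 0.43, adjusted p = 0.119, and without fetus 8, 0.45, adjusted p = 0.128, edgeR), with the fetus as a replicate block (0.53, adjusted p = 0.0928, edgeR) and with DESeq2 (0.48, adjusted p = 0.0688).

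**Figure D1:**
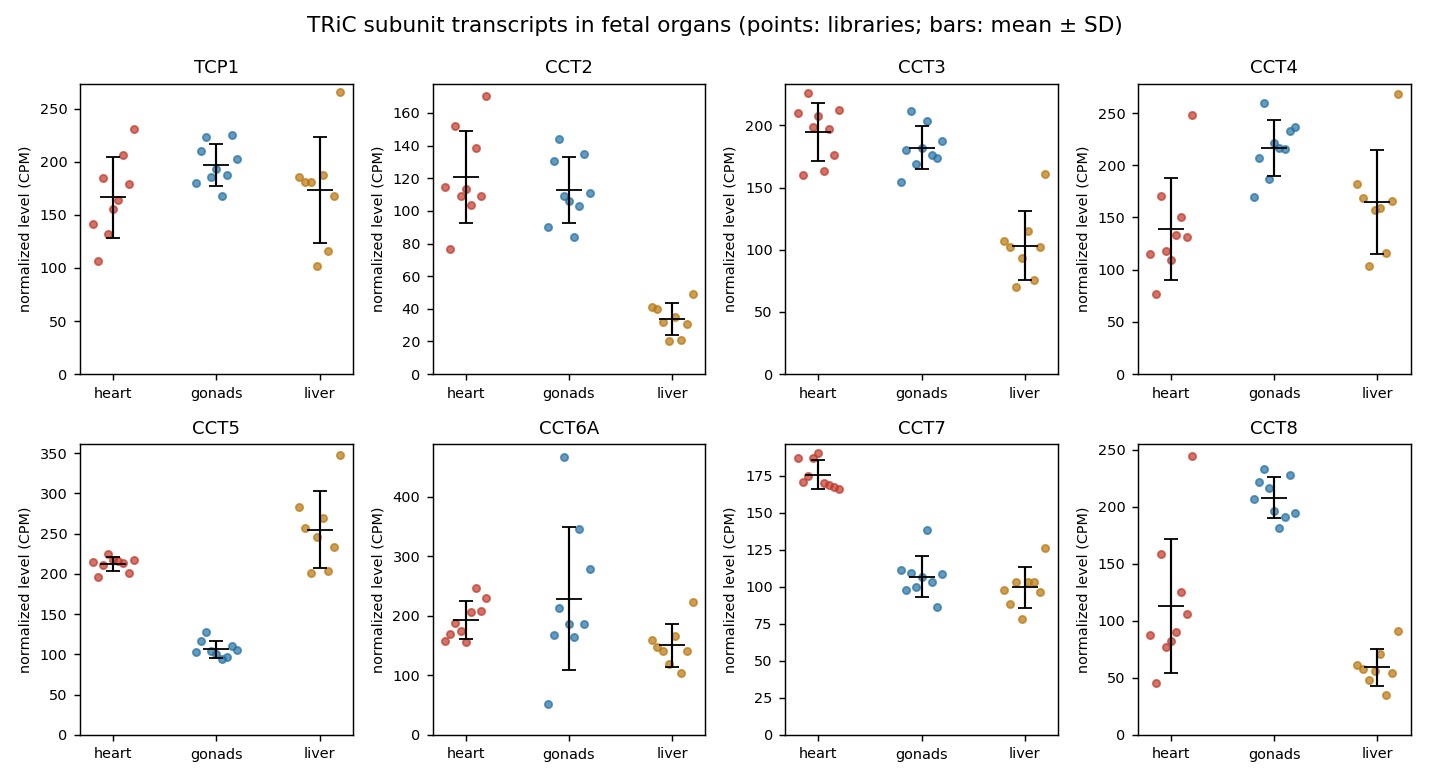
Each panel plots 1 subunit, with the normalized level in CPM on the vertical axis (starting at 0) and heart, gonads and liver side by side. Points are libraries and bars the mean ± SD: CCT5 is low in all 9 gonad libraries, CCT2 is low in all 8 liver libraries, CCT7 is high in all 9 heart libraries, and CCT6A spreads from 51.0 to 467 CPM in the gonads.

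In counts of subunits called, heart against gonads gave 2 of 8 higher (CCT5 and CCT7) and 2 lower (CCT4 and CCT8), where 28.8% of all genes tested were higher and 28.7% lower. Heart against liver gave 4 higher (CCT2, CCT3, CCT7 and CCT8) and 1 lower (CCT5), against 33.5% and 34.8% of all genes. Gonads against liver gave 4 higher (CCT2, CCT3, CCT6A and CCT8) and 1 lower (CCT5), against 36.3% and 37.7%. Counted in both directions together, these shares are not far from those of all genes, and with 8 members the split by direction rests on few genes. The median log2 fold change of the 8 was −0.07 for heart against gonads, 0.59 for heart against liver and 0.50 for gonads against liver, and that of all genes −0.06, −0.03 and −0.04.

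Directions between organs depend on the scaling. When libraries were scaled by total counts alone, the median of all genes moved to −1.11 for heart against gonads and to 1.01 for gonads against liver, and CCT2 (−0.89), CCT3 (−0.94), CCT5 (−0.057) and CCT7 (−0.35) then had negative fold changes for heart against gonads. Measured from the median of all genes under the same scaling, these 4 values were 0.22, 0.17, 1.05 and 0.77, and under TMM 0.16, 0.16, 1.06 and 0.78. Over the 24 subunit contrasts, no value relative to the median of all genes moved by more than 0.129 between 4 scalings, and 1 sign changed, that of TCP1 for heart against liver, near 0. A scaling acts on all genes of a library alike, so this was largely fixed in advance. It cannot tell which scaling gives the right direction between organs.

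The balance among the subunits does not depend on library scaling, since it is taken within each library. It was measured as the share of each subunit in the summed counts of the 8. Because counts were not divided by transcript length, a share cannot be read as the abundance of one subunit against another and is compared only for the same subunit between tissues. Blood libraries were made with another kit and are given without a test.

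The share of CCT5 had a mean of 16.5% for hearts (SD 2.204, n = 9), 7.90% for gonads (SD 0.917, n = 9), 24.7% for livers (SD 1.86, n = 8) and 16.4% for maternal blood (SD 1.296, n = 10). The 3 organs did not overlap, at 12.7% to 19.5%, 6.78% to 9.62% and 22.7% to 28.2%. CCT2 held 9.09 ± 0.843% for hearts, 8.29 ± 1.18% for gonads, 3.21 ± 0.514% for livers and 10.03 ± 0.403% for blood (mean ± SD, as below), and its highest liver share (3.82%) was far under the lowest of the other tissues (6.73%). CCT8 held 15.4 ± 1.89% in the gonads, 8.22 ± 2.84% in the heart, 5.66 ± 0.621% in the liver and 10.9 ± 1.01% in blood, so the gonads had the largest share of it and the liver the smallest. CCT4 held 10.3 ± 1.91% in the heart and between 15.7% and 16.7% on average in the other tissues. CCT7 had its highest mean share in the heart (13.7 ± 2.32%) and its lowest in the gonads (8.003 ± 1.68%). CCT3 had its lowest mean share in the liver (9.87 ± 0.865%), against 13.0% to 14.9% elsewhere. The mean shares of CCT6A lay between 13.3% and 16.3% in the 4 tissues. TCP1 had mean shares between 12.6% and 16.6% in the 3 organs but 8.70 ± 0.614% in blood, where each library was under every organ library.

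**Figure D2:**
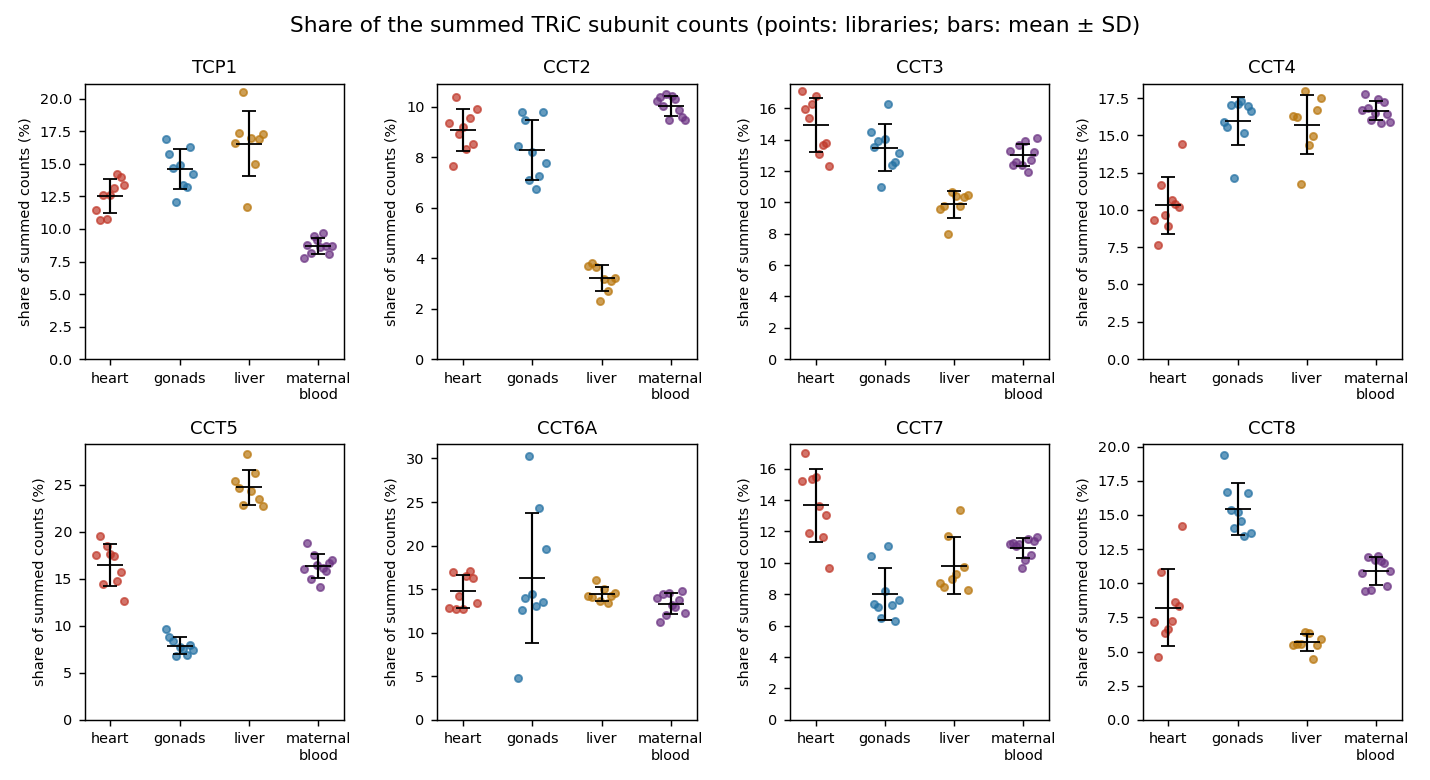
Each panel plots 1 subunit, with its share in percent of the summed counts of the 8 subunits on the vertical axis (starting at 0) and the 4 tissues side by side. Points are libraries and bars the mean ± SD: the 3 organs do not overlap for CCT5 (means 16.5%, 7.90% and 24.7%), the liver lies apart for CCT2, and blood lies lowest for TCP1.

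Tested with the summed subunit counts as the reference, heart against gonads gave 2 subunits with a higher relative level, CCT5 (log2 1.06 ± 0.10, adjusted p = 6.1e-10, edgeR) and CCT7 (0.77 ± 0.13, adjusted p = 1.74e-05, edgeR), and 2 with a lower one, CCT4 (−0.63 ± 0.11, adjusted p = 2.72e-05, edgeR) and CCT8 (−0.91 ± 0.15, adjusted p = 1.04e-05, edgeR). On this scale 28.0% of all genes were higher and 25.7% lower. For heart against liver, CCT2 (1.502 ± 0.11), CCT3, CCT7 and CCT8 were higher and TCP1 (−0.40 ± 0.11), CCT4 (−0.61 ± 0.12) and CCT5 (−0.59 ± 0.10) lower, 7 of 8 in all, where 24.1% of all genes were higher and 42.5% lower. For gonads against liver, CCT8 (1.45 ± 0.16), CCT2 (1.37 ± 0.11) and CCT3 were higher and CCT5 lower (−1.65 ± 0.10, adjusted p = 4.91e-14, edgeR), against 26.6% and 44.6% of all genes. CCT7 just missed the threshold there (−0.30 ± 0.14, adjusted p = 0.0529, edgeR) and passed it with the fetus as a replicate block (−0.37, adjusted p = 0.035, edgeR) and when fetus 1, 2, 7 or 10 was left out (without fetus 7, −0.37, adjusted p = 0.0152, edgeR). TCP1 passed it there without fetus 4 (−0.24, adjusted p = 0.0458, edgeR). All genes share the error of the common reference on this scale, and a subunit is itself in the sum, so a rise of one lowers the others. In simulated data, whose organs were less unlike than the real ones, this test called too many unchanged genes. Its adjusted p-values therefore cannot be taken at face value, and the shares and ratios by library, which need no such test, are the firmer description. With CCT6A left out of the sum, TCP1 also passed for heart against gonads (−0.24, adjusted p = 0.0333, edgeR), as it did without fetus 8 with the full sum (−0.26, adjusted p = 0.0463, edgeR), and every call named above was kept.

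Ratios of counts between a pair of subunits show the same changes without a common sum, and are compared only between tissues. The ratio of TCP1 to CCT2 was 1.21 to 1.65 for hearts (geometric mean 1.38), 1.55 to 2.002 for gonads (1.77), 4.49 to 5.63 for livers (5.17) and 0.761 to 0.964 for blood (0.866). Liver and blood were each apart from all other libraries, and heart and gonads met only at their edges. The ratio of CCT5 to CCT8 was held within 0.482 to 0.547 over the 9 gonad libraries and within 3.81 to 5.85 over the 8 liver libraries, but ran from 0.890 to 4.28 in the heart and from 1.18 to 1.999 in blood. The ratio of CCT5 to CCT7 was narrow in the heart (1.14 to 1.31) and higher in every liver library (1.94 to 3.14). CCT4 to CCT8 was near 1 in the gonads (0.818 to 1.22) and 2.13 to 3.34 in the liver.

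The study asked which transcripts change with fetal weight, so each subunit was followed along weight within each tissue. In the heart, TCP1, CCT4, CCT6A and CCT8 had slopes above 0 at an unadjusted p under 0.05, but no subunit passed the adjusted threshold. The slopes of CCT3, CCT5 and CCT7 were between −0.034 and 0. A slope is in log2 units per 0.1 g of fetal weight and is from edgeR's test of a linear term, adjusted over all genes tested in the tissue.

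CCT8 in the heart was 87.8 CPM in fetus 1, 45.9 in fetus 2, 159 in fetus 3, 77.2 in fetus 4, 82.2 in fetus 5, 90.0 in fetus 6, 125 in fetus 8, 106 in fetus 9 and 244 in fetus 10. The heaviest fetus had the highest value and the next to lightest the lowest, but fetus 3, at 1.346 g, had the second highest. Its slope was 0.28 ± 0.10 (adjusted p = 0.102, edgeR). CCT4 followed the same course, from 77.0 CPM in fetus 2 to 171 in fetus 3 and 248 in fetus 10, with a slope of 0.20 ± 0.07 (adjusted p = 0.0987, edgeR), and across the 9 heart libraries its log2 level correlated with that of CCT8 at Pearson's r = 0.987. TCP1 ranged from 107 CPM in fetus 2 to 230 CPM in fetus 10, with a slope of 0.16 ± 0.05 (adjusted p = 0.066, edgeR). CCT6A was between 157 and 187 CPM in fetuses 1 to 5 and between 206 and 247 CPM in the 4 heavier ones, so that here the transfer groups did not overlap, and its slope was 0.12 ± 0.04 (adjusted p = 0.075, edgeR). CCT2 had a slope of 0.11 ± 0.06 (adjusted p = 0.264, edgeR). CCT5, by contrast, stayed between 196 and 225 CPM in all 9 hearts (slope −0.0021 ± 0.028, adjusted p = 0.966, edgeR). CCT7 stayed between 166 and 191 CPM (−0.034 ± 0.028), and CCT3 had more spread, between 160 and 226 CPM, with no trend (adjusted p = 0.999, edgeR).

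So 0 of 8 subunits were called by the linear term in the heart, where 6.78% of all 16250 genes were called, and 4 of 8 rose at an unadjusted p under 0.05, where 16.4% of all genes did. A spline of weight with 3 degrees of freedom called 0 subunits and 0% of all genes in the heart, and 0 subunits had an unadjusted p under 0.05, where 7.99% of all genes did. Other analyses of the heart slopes gave more calls: DESeq2 called TCP1, CCT4, CCT6A and CCT8 (20.0% of all genes it tested), a negative binomial additive model called TCP1, CCT6A and CCT7 (26.5% of all genes), the fit without fetus 3 called the same 4 (24.8% of all genes), and RLE size factors called TCP1 (adjusted p = 0.048, 9.08% of all genes). No gene at all was called without fetus 1, 2, 4, 5, 8 or 10, or with the transfer group as a covariate. With the transfer group in place of weight, 0 subunits and 0.0492% of all genes were called, and the log2 differences of ET_D9 from ET_D7 hearts were 0.40 for CCT6A (adjusted p = 0.0689), 0.44 for TCP1 (0.14), 0.49 for CCT4 (0.248) and 0.65 for CCT8 (0.303, edgeR). With the summed subunits as the reference, the slopes of CCT8 (0.19) and CCT7 (−0.12) were the largest in each direction and neither was called (adjusted p = 0.113 and 0.111, edgeR), where 1.68% of all genes were.

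The mitochondrial share moved with these levels. Fetus 2, lowest for CCT8, had the highest share of the hearts (57.3%), fetus 10, highest for CCT8, had the lowest (17.1%), and fetus 3 had 23.5%. With that share as a covariate, the slope of CCT8 was −0.057 (adjusted p = 0.792), that of CCT4 −0.023 (0.912), that of TCP1 0.026 (0.849) and that of CCT6A 0.097 (0.602, edgeR). The mitochondrial share was itself 45.1% and 57.3% in fetuses 1 and 2, and 28.5% and 17.1% in fetuses 9 and 10. In these hearts the share and fetal weight therefore largely cannot be told apart. The 8 cardiomyocyte markers summed to 24820 CPM in fetus 10 and 26020 CPM in fetus 3, the hearts highest for CCT8 and CCT4, and to 28940 to 35930 CPM in the others. The part of this sum in the slopes was not tested.

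**Figure D3:**
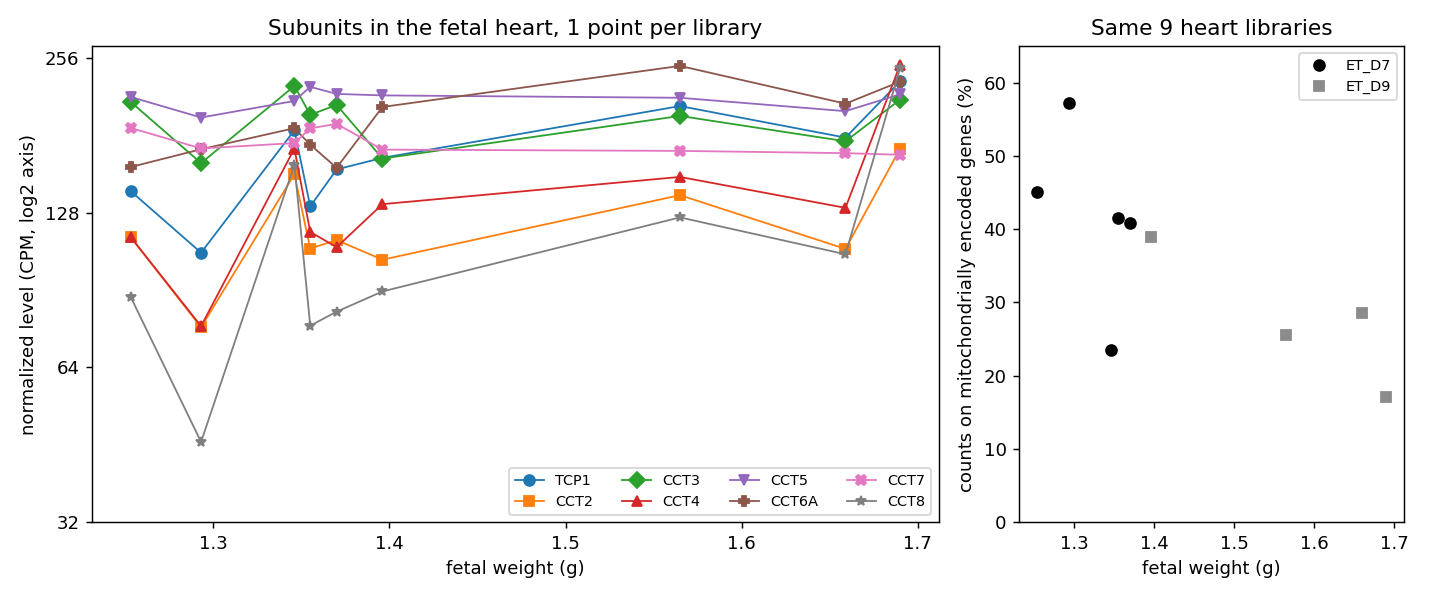
On the left, the normalized level of each subunit in CPM (log2 axis) is plotted against fetal weight in g for the 9 hearts, and on the right the percent of counts on mitochondrially encoded genes in the same libraries by transfer group. CCT8 and CCT4 dip in fetus 2 and peak in fetuses 3 and 10 (17.1% mitochondrial counts), while CCT5 stays between 196 and 225 CPM.

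In the gonads no subunit was called by the linear term or by the spline, as was the case for 0% of all genes by both, and all slopes but that of CCT6A lay between −0.019 and 0.065. By unadjusted p under 0.05 the linear term had 0 subunits (5.62% of all genes) and the spline 1, CCT6A (p = 0.0471, adjusted p = 0.39, edgeR), where 12.6% of all genes were. DESeq2 (0% of all genes) and the additive model (14.1%) called 0 subunits. The 7 subunits other than CCT6A varied by at most 1.71-fold from the lowest to the highest gonad library. CCT6A, named here after its values were seen, varied 9.14-fold, or 2.85-fold without fetus 1. It was 51.0 CPM in fetus 1, 168 in fetus 3, 213 in fetus 4, 467 in fetus 5, 187 in fetus 6, 164 in fetus 7, 345 in fetus 8, 186 in fetus 9 and 279 in fetus 10, with no order by weight (slope 0.15 ± 0.19, adjusted p = 0.941, edgeR). Its share of the summed subunit counts went from 4.79% in fetus 1 to 30.3% in fetus 5. Across the 9 gonad libraries its log2 level correlated with those of the other subunits at r between −0.23 and 0.39. By comparison, 5.66% of the 17809 genes tested in the gonads had at least as large a standard deviation, and 373 other genes (2.09%) correlated with CCT6A above 0.9.

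The genes closest to CCT6A in the gonads were TARDBP, SERBP1, NCL, DDX5 and DBF4, of which the first 4 encode RNA-binding proteins. TARDBP was 24.1 CPM in fetus 1, 254 in fetus 5 and 194 in fetus 8 (r = 0.99 with CCT6A over 9 libraries), and NCL, nucleolin, was 102, 1126 and 887 CPM in the same 3 libraries. These points share their libraries, and the correlation is a description. Of the genes beside CCT6A on the chromosome, PSPH lay between 4.21 and 9.10 CPM and SUMF2 between 6.51 and 10.1 CPM. The 2 small nucleolar RNA genes annotated within CCT6A had 0 counts. Whether the counts hold spliced or unspliced RNA was not tested, nor whether copies of a subunit gene elsewhere in the genome took part of its reads.

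**Figure D4:**
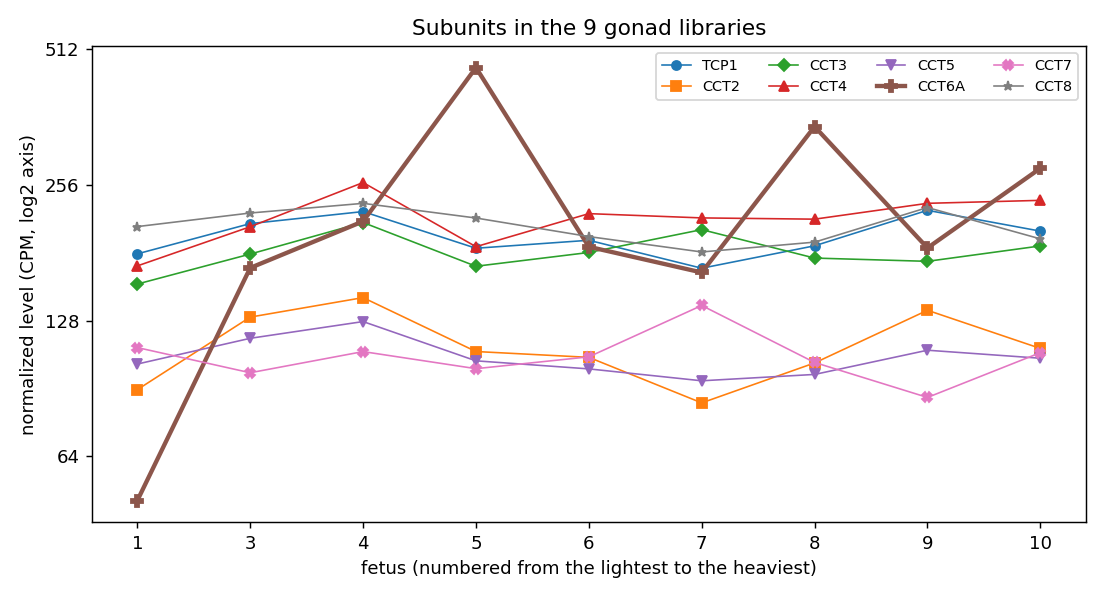
Normalized levels in CPM (log2 axis) of the 8 subunits are plotted for the 9 gonad libraries, ordered by fetus from the lightest to the heaviest; lines only join the points of a subunit. CCT6A (thick line) runs from 51.0 CPM in fetus 1 to 467 CPM in fetus 5 and 345 CPM in fetus 8, while each of the other 7 stays within 1.71-fold.

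In the liver the linear term called 0 of 8 subunits, against 2.23% of all genes, and the spline 0 of 8, against 1.81%. Slopes lay between −0.011 and 0.067, with 0 at an unadjusted p under 0.05, where 17.2% of all genes were, and DESeq2 called 0 subunits and 9.14% of all genes. The subunits moved together: fetus 10 was highest for all 8 (summed level 1533 CPM) and fetus 8 had the lowest sum (774 CPM), and each subunit correlated with the other 7 at a mean r between 0.48 (CCT7) and 0.84 (CCT6A). CCT8 was 34.7 CPM in fetus 8 and 90.7 CPM in fetus 10, and CCT5 203 and 348 CPM. The liver of fetus 10 was also the highest of the 8 for 17.8% of all genes tested, had the lowest mitochondrial share (16.3%), the lowest sum of the 8 hepatocyte markers (33160 CPM) and the highest of the 8 erythroid markers (6366 CPM). That of fetus 8 had a mitochondrial share of 32.4%, the highest hepatocyte sum (59720 CPM) and the lowest erythroid sum (4196 CPM). The part of these shares and sums in the subunit levels was not tested. By unadjusted p, 4 of 8 subunits had a spline p under 0.05 in the liver (CCT2, CCT4, CCT6A and CCT8), where 17.9% of all genes did. The additive model called CCT5 (adjusted p = 0.0473), CCT6A (0.000272) and CCT8 (0.000202) in the liver, where it called 30.9% of all genes.

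In maternal blood all 8 slopes were above 0, from 0.02 to 0.06, and 0 of 8 were called by the linear term (0% of all genes) or the spline (0.129%), with 0 at an unadjusted p under 0.05 by either, where 9.69% and 9.77% of all genes were. Each subunit correlated with the other 7 at a mean r between 0.635 (CCT8) and 0.817 (CCT3), so the 8 signs are not separate observations. All 15 HSP70 and HSP90 genes also had slopes above 0. Relative to the summed subunits, 5 of the 8 slopes were above 0. DESeq2 (0.718% of all genes) and the additive model (10.9%) called 0 subunits. The share of CCT2 varied only from 9.48% to 10.5% over the 10 heifers, and that of CCT4 from 15.8% to 17.8%. CCT8 was lowest in the library of fetus 2 (58.8 CPM, with the others from 74.4 to 95.8), which is also the library with the highest sum of the cardiomyocyte list, whose part in this value was not tested. Without the libraries of fetuses 2 and 5, slopes lay between −0.0025 and 0.046 and none was called (adjusted p of 0.92 or more, edgeR).

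**Figure D5:**
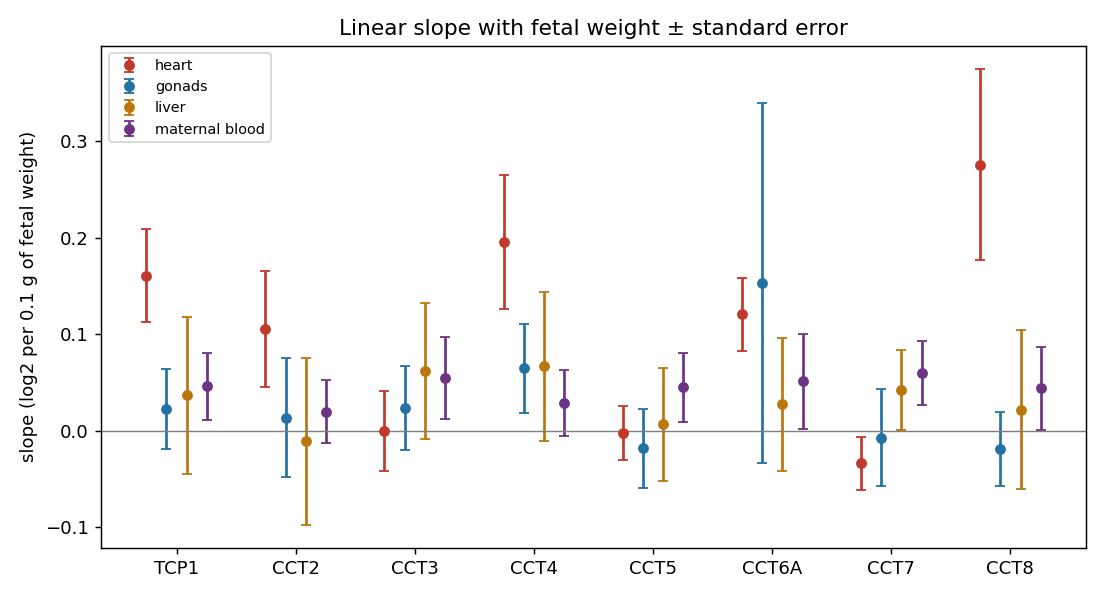
The slope of each subunit with fetal weight (log2 per 0.1 g) is plotted with its standard error for the 4 tissues. In the heart CCT8 (0.28), CCT4 (0.20), TCP1 (0.16) and CCT6A (0.12) lie above 0 while CCT3, CCT5 and CCT7 lie near it, and none of the 32 slopes passed the adjusted threshold.

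The organs were also compared for their slopes directly. The test of the organ by weight interaction called 0 of 8 subunits, where 6.20% of all genes were called. CCT8 came closest and was the 1 subunit with an unadjusted p under 0.05 (p = 0.0478, adjusted p = 0.238, edgeR), with a slope difference of −0.30 ± 0.12 for gonads minus heart and −0.23 ± 0.12 for liver minus heart. Thus a slope in the heart that differs from that of another organ was not shown for any subunit.

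The genes that work with TRiC were compared between the organs in the same fit, in which, as above, 28.8% of all genes were higher and 28.7% lower for heart against gonads, 33.5% and 34.8% for heart against liver, and 36.3% and 37.7% for gonads against liver. Among the 6 prefoldin genes, whose products deliver actin and tubulin chains, PFDN2 (log2 1.16), VBP1 (0.74), PFDN5 (1.41) and PFDN6 (1.77) were higher in the heart than in the gonads and none was lower. For gonads against liver, PFDN2, VBP1, PFDN5 and PFDN6 (−2.43 ± 0.14) were lower and PFDN1 (1.31 ± 0.39) was higher. Heart against liver had no common direction, with 2 of the 6 prefoldin genes higher, 2 lower and a median log2 fold change of −0.0048. Of the 3 phosducin-like genes tested, PDCL3 was higher in the heart than in the liver (1.07 ± 0.29, adjusted p = 0.00233, edgeR), PDCL and PDCL3 were higher in the gonads than in the liver, and none differed between heart and gonads. PDCL2 had too few counts to be tested.

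In the HSP70 and HSP90 group, 7 of 15 genes passed for heart against gonads (3 higher and 4 lower). Of all genes, 28.8% were higher there and 28.7% lower. Heart against liver gave 10 of 15 (9 higher and 1 lower), where 33.5% of all genes were higher and 34.8% lower. Gonads against liver gave 10 of 15 (7 higher and 3 lower), where 36.3% were higher and 37.7% lower. Counted in both directions together, these shares are not far from those of all genes. Calls in both contrasts with the liver were more often higher than lower, while those of all genes were near even. With 15 genes that split rests on few genes. The co-chaperone DNAJB1 was higher in the heart (298 ± 122 CPM) and liver (385 ± 181) than in the gonads (90.9 ± 15.1, SD), and the heat shock factor HSF2 lowest in the liver (12.4 ± 2.49 CPM, against 71.6 ± 10.9 in the gonads). HSPE1, the partner of the mitochondrial chaperonin, was 717 ± 165 CPM in the heart and 119 ± 14.3 in the gonads (log2 2.60 ± 0.16, adjusted p = 6.05e-14, edgeR). It was the 1 of 2 mitochondrial chaperonin genes called there, and HSPD1, the chaperonin itself, was not called. Of 20 actin and tubulin genes, the substrates, 14 passed for heart against gonads (12 higher and 2 lower), 18 for heart against liver (13 and 5) and 19 for gonads against liver (7 and 12). The largest fold changes were those of the cardiac and skeletal actins ACTC1 and ACTA1 and the smooth muscle actin ACTA2 for heart against gonads, at 9.77, 6.03 and 5.10. Among the 5 tubulin cofactors, TBCD and TBCE were lower and TBCB and TBCC higher in the heart than in the gonads, and 2 were higher in the heart than in the liver. Of 11 other substrates, 8 passed in each contrast, among them CCNE1, cyclin E, at 7.16 ± 2.46 CPM in the heart and 81.5 ± 20.3 in the liver (SD). Of 5 chaperonin-like relatives 1 passed in each contrast.

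Along weight in the heart, several cofactors passed the test. PFDN1 rose with a slope of 0.47 ± 0.09, TXNDC9 with 0.48 ± 0.09 and PDCL3 with 0.34 ± 0.06 (adjusted p = 0.0395 for each, edgeR), from 1 of 6 prefoldin and 2 of 3 phosducin-like genes, where 6.78% of all genes were called. TXNDC9 belongs to the phosducin-like family. The prefoldin genes did not rise together: 3 of 6 slopes were above 0, and their median was 0.016. Of the 6, 4 had an unadjusted p under 0.05 (edgeR), where 29.1% of all genes did. No gene at all was called in the heart without fetus 1, 2, 4, 5, 8 or 10, with total counts alone or with the transfer group as a covariate, so these calls and those named next are lost in each of these settings. PFDN1, TXNDC9 and PDCL3 also rose relative to the summed subunits (slopes 0.38, 0.38 and 0.25, adjusted p = 0.049 for each, edgeR), where 1.68% of all genes were called. In simulated data the organ fit with this reference called too many unchanged genes, so these adjusted p-values may be too small. The part of the mitochondrial share in these slopes was not tested. DNAJA2 rose by 0.19 ± 0.05 (adjusted p = 0.0494, edgeR), as did the tubulin gene TUBA1A (0.25 ± 0.06) and the tubulin cofactor TBCA (0.13 ± 0.03). These were 1 of 15 HSP70 and HSP90 genes, 1 of 20 actins and tubulins and 1 of 5 tubulin cofactors. For the HSP70 and HSP90 genes and for the actins and tubulins, that is near the 6.78% of all genes. In the gonads, liver and blood no gene of these lists was called by the linear term.

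Over the 26 organ libraries, the genes whose log2 level was most like the mean standardized level of the 8 subunits were PPIA (r = 0.95), GLTP (0.93), HMGN2 (0.92), RBX1 (0.92) and ARPC1A (0.92). PPIA encodes cyclophilin A, a prolyl isomerase of the cytosol. The points share organ, library and depth, and the correlations are descriptions.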

How the data were processed

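The authors trimmed the reads with Trimmomatic, checked them with FastQC 0.11.9, mapped them with STAR 2.7.0b to an index of the bovine assembly ARS-UCD1.3, and deposited whole-number read counts per Entrez gene made with featureCounts (Subread 2.0.3). Options for strand, multi-mapping reads and read pairs are not given in the sources used here. Organ libraries were made with a stranded mRNA kit and blood libraries with another stranded kit, so blood was not tested against organs. Symbols came from RefSeq (31630 of 35092 identifiers matched). No sequence or transcript length was used.

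Genes that reached 10 counts in 4 or more libraries of a fit were tested with edgeR 4.0.16 (R 4.3.3), TMM and the quasi-likelihood test, with Benjamini-Hochberg adjustment over all of them and a threshold of 0.05. Organs were compared in 1 fit of 26 libraries, balance with the summed subunit counts as the offset, and weight in each tissue as a linear term and as a natural spline with 3 degrees of freedom. Standard errors are the estimate divided by the square root of F. On simulated data with known changes, the organ and weight fits with TMM kept the share of false calls near or under the threshold. The fit relative to the summed subunits called far more unchanged genes than the threshold allows, so adjusted p-values on that scale cannot be taken at face value. The simulated organs shared a common mean profile with few changed genes, unlike the real ones, and weight was simulated in the heart only. The simulation therefore cannot give the share of false calls in the real libraries. Alternatives were other scalings, filters, DESeq2 1.42.0, an additive model (mgcv 1.9.3), transfer group, fetus as a block, and leaving out each fetus.

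The members, gene lists and tests were chosen with earlier results of these data known. Named genes are all 8 subunits, genes of the prefoldin, phosducin-like and HSP70 or HSP90 lists, of each other list the 3 with the largest fold change among those called in an organ contrast, and the 5 most alike. TUBA1A, TBCA, TBCC and genes close to CCT6A in the gonads were chosen after their values were seen. Libraries with the same number come from the same fetus or its dam, which pairs them: deviations from the organ means correlated at r from −0.341 to 0.382 within a fetus (median 0.0255, 23 pairs) and at a median of −0.00465 between fetuses.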

Additional observations from a re-analysis of the deposited data

Results flagged for a closer look

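The 32 combinations of 8 subunits and 4 tissues were checked for a library far from the others, by the gap to its nearest neighbour over the range of the log2 levels, and chance marks about 1 in 20 such groups. Of these, 2 were marked.

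CCT6A in the gonads was lowest in fetus 1, at 51.0 CPM with the next library at 164 CPM, a gap of 0.527 of the range, past the critical value of Dixon's test for 9 libraries. The same library was the lowest by such a gap for 6.14% of the 17809 genes tested in the gonads, and 22.0% of those genes had a high or a low library past the critical value.

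CCT8 in maternal blood was lowest in the library of fetus 2, at 58.8 CPM with the next at 74.4 CPM, a gap of 0.483 of the range, past that for 10 libraries. That library was the lowest by such a gap for 1.42% of 16284 genes, and 9.99% of those genes had a high or a low library past the critical value. It was the lowest of the 10 for 5 of 8 subunits and for 16.5% of all genes tested, and held 3775 CPM of the cardiomyocyte list.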

How the results depend on the processing

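Scaling by total counts alone moved the organ counts most. Heart against gonads gave 0 subunits higher and 7 lower, heart against liver 0 lower, and gonads against liver 7 higher and 0 lower. For heart against gonads CCT2 (−0.89), CCT3 (−0.94), CCT5 (−0.057) and CCT7 (−0.35) turned in sign. The median of all genes moved by a like amount in both contrasts with the gonads, but stayed at −0.03 for heart against liver. Requiring an absolute log2 fold change above 1 left 0 higher and 0 lower for heart against gonads, 1 and 0 for heart against liver, and 2 higher for gonads against liver. DESeq2 and RLE each called 2 lower for heart against liver, CCT4 with CCT5. Leaving out 1 fetus gave 0 (without fetus 10) to 1 lower for heart against liver, and 1 to 2 lower relative to the sum for gonads against liver. With the fetus as a replicate block that last count was 2 (CCT7, −0.37, adjusted p = 0.035, edgeR), as it was without the gonad library of fetus 1, and the call of CCT6A for gonads against liver was lost. The block changed no other call. With TMM as the reference in place of the sum, 1 subunit was lower for heart against liver. In the heart, slopes called 4 subunits with DESeq2, 1 with RLE and 0 to 4 when 1 fetus was left out (4 without fetus 3), and the additive model called 3 in the heart and 3 in the liver. CCT4 for gonads against liver (adjusted p = 0.0517, edgeR) was called without fetus 1 or 10, without the gonad library of fetus 1 (0.0386) and with a looser filter on low counts (0.0427). The causes were not tested. Choices added after seeing the data were the sum without CCT6A, the sum as the reference for slopes, the mitochondrial covariate, and leaving out the gonad library of fetus 1 or the blood libraries of fetuses 2 and 5. Of 432 single organ values under alternatives, 395 kept their direction and side of the threshold or stayed uncalled, as did 324 of 336 for balance and 607 of 616 for slopes. No slope was called in the main analysis, so a slope counts here whenever it stayed uncalled, and 82 of the 607 changed in sign. Of the values counted for organs and balance, 2 and 6 changed in sign while uncalled. No subunit had fewer than 281 counts in a library.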
